A study of Homo sapiens with 6 samples.

Results

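The kinesin superfamily genes were described in HEL cells, a human erythroleukemia cell line. Members were taken by name: a gene listed as KIF with a number and at most a single letter, or as KIFC with a number, without antisense or pseudogene names. Of the 31999 genes listed, 40 were members. RNA came from 3 libraries of HEL cells carrying the control hairpin (shCtrl) and 3 libraries of HEL cells carrying a hairpin against TMIGD2 (shTMIGD2), delivered by lentivirus, and the labels do not tell which anti-TMIGD2 hairpin was used. The values used here are the authors' log2 CPM, a single value per gene with no library named. CPM is the number of reads of a gene scaled to the reads of its library. These values are read here as means over all 6 libraries. Whether logs were taken before or after averaging is not given in the sources used here. Both hairpins are pooled in each value, so every level below is an average over control and knockdown cells. The paper reports cell-cycle arrest and a downregulated mitotic spindle gene set in HEL cells after TMIGD2 knockdown. How far the mitotic kinesins differ between the pooled groups was not tested. The values have no spread between libraries, no n and no test, and differences between shTMIGD2 and shCtrl were not analysed here. TMIGD2 itself had an authors' mean of 4.08 log2 CPM, a pooled value that cannot check the labels.

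Kinesins are motor proteins that use ATP to move along microtubules or to change their ends. A first set builds the mitotic spindle, moves chromosomes and completes cytokinesis, and its transcripts are known to peak around mitosis. A further set carries vesicles, organelles and protein complexes, mostly toward the plus ends of microtubules, and several of its members are known chiefly from neurons. Genes expressed late in the cell cycle often carry the cell cycle genes homology region (CHR, TTTGAA) near their start, commonly with CCAAT boxes upstream of it, where repressor and activator complexes bind. By these textbook roles 14 listed members were classed as mitotic and 15 as transport kinesins. The other 11 act in cilia, Hedgehog signalling, centrioles or microtubule regulation, or have no agreed cargo. KIF2B and KIF12, also on the class lists, had no row and were not analysed here.

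Markers of the labelled cell type were present in the pooled levels. All 10 erythroid markers had an authors' mean of at least 0 log2 CPM, from 2.46 for HBZ to 11.09 for TFRC. So did the 5 megakaryocyte markers, from 5.83 to 10.54 log2 CPM, which HEL cells are known to express. The same line was reached by 69.1% of protein-coding genes, so these counts alone do not mark a cell type. Of 6 neuron markers 5 were listed and only SYP reached 0 log2 CPM, at 3.08, while RBFOX3, SNAP25 and NEFL lay between -3.76 and -3.18. Of 5 markers of multiciliated cells only RSPH1 reached 0, at 1.70 log2 CPM. Of 4 lymphocyte markers only CD79A was listed, at 2.32 log2 CPM. The lowest value in the whole table was -3.76 log2 CPM, shared by 154 genes, and marks genes with almost no reads.

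Promoter windows from RefSeq (GRCh38.p14), 250 bases before to 50 after each gene start, were found for 32 of the 40 members, including every mitotic kinesin. Those of KIF5A, KIF13B, KIF19, KIF21B, KIF26B, KIF27, KIFC2 and KIFC3 were not analysed here. Some genes have several starts, and a gene was counted when any of its windows held the letters on either strand. The CHR letters TTTGAA were present in 10 of 14 mitotic kinesins (71.4%) and in 1 of 11 transport kinesins (9.09%). None of the 7 other members had them, against 14.7% of the 13289 listed protein-coding genes with a window and 18.2% of all 27305 genes with one. In each of the 10 mitotic genes the letters began no more than 60 bases before the start or after it, a placement found in 4.94% of the listed protein-coding genes. The limit of 60 bases was chosen after seeing the data and takes in the furthest mitotic site, KIF23 at -55. The contrast at this limit is therefore description only. KIF4A and KIF4B, near copies of each other, are both among these 10 genes and are not separate cases. In KIF5B, the transport kinesin with the letters, they began at position -140.

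The CCAAT letters were found in 11 of 14 mitotic kinesins (78.6%), 4 of 11 transport kinesins (36.4%) and 2 of 7 others (28.6%), against 42.6% of listed protein-coding genes. A CHR near the start together with a CCAAT box occurred in 9 of 14 mitotic kinesins, with KIF4A and KIF4B both counted. It occurred in none of the transport or other members, and in 2.14% of the listed protein-coding genes. The E2F letters TTTGGCGC or TTTCGCGC were seen only in KIF15 among the members, and in 2.17% of listed protein-coding genes. The 4 mitotic genes without the CHR letters were KIF2A, KIF2C, KIF20A and KIF22, so 3 of the 5 highest mitotic transcripts per kilobase were among the genes lacking these exact letters in this window.

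The distance between the CHR and its nearest CCAAT box varied from 9 to 128 bases among the mitotic genes. Counted between their first bases, the box preceded the CHR by 23 bases in KIF14, 24 in KIF4A, 24 in KIF4B, 25 in KIF11, 34 in KIF18B, 35 in KIF18A and 50 in KIFC1. KIF4A and KIF4B are near copies, so their equal distances are not separate cases. The distance was 9 bases in KIF23, and in KIF20B the CHR copies lay 122 and 128 bases downstream of the box. In KIF5B the CHR lay upstream of its box, at -140 and -59. KIF15 had its CHR directly beside the E2F letters and no CCAAT box. Letters in a window are a description and do not show that a factor binds there.

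**Figure D1:**
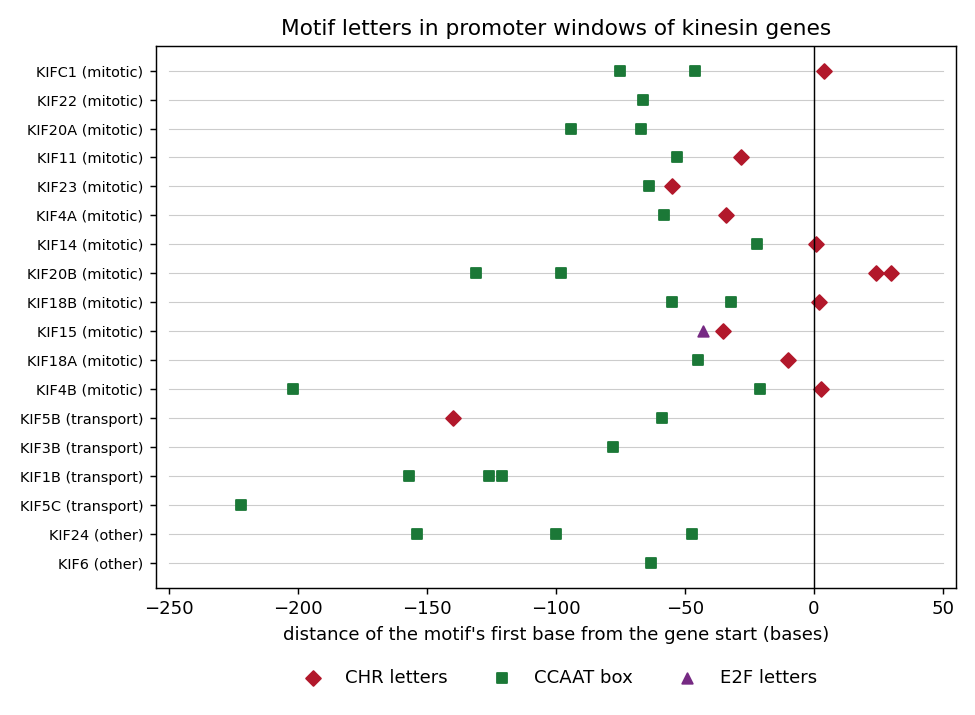
Position of the motif letters in the promoter windows of the kinesin genes that held any, in bases from the gene start (vertical line, genes with several starts overlaid). Diamonds are CHR letters, squares CCAAT boxes and the triangle E2F letters; the diamonds gather around the start in mitotic genes, while the single diamond of a transport gene, KIF5B, lies at -140.

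The 70 bases before the start are shown for 5 mitotic genes that carry the CHR there, so that the arrangement can be read directly, and for KIF4B, the near copy of KIF4A. KIF11, KIF18A, KIF23 and KIF15 were chosen after the motif search. Starts are those of the RefSeq windows, and in KIF11 and KIF2C they lie inside the GENCODE gene span given further on. Capitals mark the CHR, CCAAT or E2F letters on either strand, so a CHR on the opposite strand reads as its reverse complement.
KIF4A, chrX:70290034-70290103, plus strand: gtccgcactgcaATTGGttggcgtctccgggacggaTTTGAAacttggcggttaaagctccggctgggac
KIF4B, chr5:155013685-155013754, plus strand: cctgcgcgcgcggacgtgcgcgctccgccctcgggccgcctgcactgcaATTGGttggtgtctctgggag
KIF11, chr10:92593060-92593129, plus strand: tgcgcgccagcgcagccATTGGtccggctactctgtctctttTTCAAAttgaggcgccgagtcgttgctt
KIF18A, chr11:28108157-28108226, minus strand: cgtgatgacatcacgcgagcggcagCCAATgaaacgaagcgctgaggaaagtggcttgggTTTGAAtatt
KIF23, chr15:69414279-69414348, plus strand: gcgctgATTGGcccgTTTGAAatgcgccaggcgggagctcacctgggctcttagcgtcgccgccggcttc
KIF15, chr3:44761724-44761793, plus strand: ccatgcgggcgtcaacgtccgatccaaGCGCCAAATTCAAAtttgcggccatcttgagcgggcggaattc

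The same stretch is shown for the highest mitotic and transport transcripts with a promoter window, which leaves out KIFC3, second of the transport class, and for KIF22 it belongs to the first of its starts. KIFC1 carries its CHR 5 bases after the start, outside the stretch printed. KIF2C and KIF3B hold none of the searched letters here.
KIF2C, chr1:44739767-44739836, plus strand: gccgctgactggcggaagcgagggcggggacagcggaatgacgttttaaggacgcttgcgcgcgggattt
KIFC1, chr6:33391753-33391822, plus strand: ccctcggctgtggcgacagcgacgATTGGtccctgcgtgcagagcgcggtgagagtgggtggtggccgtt
KIF22, chr16:29790681-29790750, plus strand: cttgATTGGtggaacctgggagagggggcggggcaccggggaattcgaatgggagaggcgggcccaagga
KIF20A, chr5:138179042-138179111, plus strand: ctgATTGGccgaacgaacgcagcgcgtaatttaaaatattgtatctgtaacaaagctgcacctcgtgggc
KIF5B, chr10:32056426-32056495, minus strand: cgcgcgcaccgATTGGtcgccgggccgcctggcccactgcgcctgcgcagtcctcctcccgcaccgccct
KIF3B, chr20:32277581-32277650, plus strand: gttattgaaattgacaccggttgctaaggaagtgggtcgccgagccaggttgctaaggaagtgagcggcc

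The mitotic kinesins were the most abundant class. Levels of different genes are compared per length, as log2 CPM per kilobase of the MANE Select transcript, the reference transcript of each gene in GENCODE 44. On this scale KIF2C, a depolymerase that corrects chromosome attachments at centromeres (chr1:44739818-44767767, plus strand, GRCh38), was the highest of all 40 members at 6.0 (64.1 CPM per kilobase), above 93.1% of 16630 protein-coding genes. KIFC1, a minus-end motor that gathers spindle poles (chr6:33391823-33409896, plus strand), stood at 5.49. KIF22, which pushes chromosome arms from the poles, was at 5.25 log2 CPM per kilobase. KIF11, the motor that separates spindle poles (chr10:92574105-92655395, plus strand), reached 4.91. KIF15, which keeps the spindle bipolar alongside KIF11, was lower at 3.51. The first place of KIF2C depends on the length used. Before division by length the transport kinesin KIF5B was higher, at 8.32 against 7.52 log2 CPM for KIF2C. KIF5B also exceeded KIF2C with the coding length or the merged length of all exons of the gene.

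Motors of cytokinesis and late mitosis lay between 3.63 and 5.09 log2 CPM per kilobase. KIF20A, which brings the chromosomal passenger complex to the central spindle, was the highest of them at 5.09. KIF23, the motor of centralspindlin, was at 4.73. KIF14 and KIF20B, further motors of late mitosis, were close to each other at 3.66 and 3.63. Together the 3 members of the kinesin-6 family, KIF20A, KIF20B and KIF23, made up 16.2% of the summed level of all kinesins, second to the kinesin-13 family of KIF2A, KIF2C and KIF24 with 17.3%.

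The remaining mitotic kinesins covered a wider range. KIF4A, a chromosome-bound motor that also shortens the central spindle, was at 3.96 log2 CPM per kilobase. KIF2A, a depolymerase of spindle poles that neurons also use, was at 3.68. KIF18B and KIF18A, which restrain microtubule plus ends and chromosome movements, were at 3.56 and 2.69. KIF4B was the exception of the class at -1.89 log2 CPM per kilobase, from an authors' mean of 0.24 log2 CPM. The other 13 mitotic kinesins all lay at or above 2.69.

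**Figure D2:**
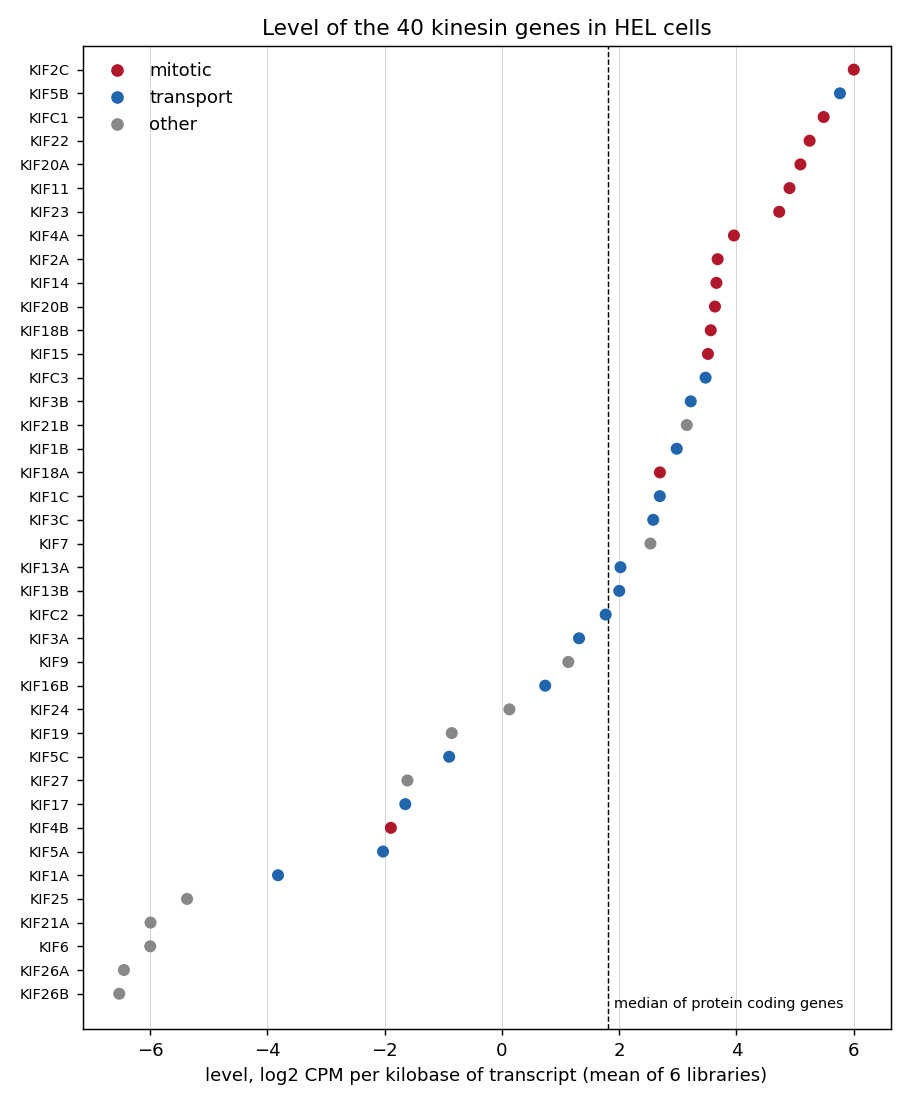
Authors' mean level of each of the 40 kinesin genes over 6 libraries, as log2 CPM per kilobase of transcript, with mitotic, transport and other members in separate colours. The dashed line is the median of protein-coding genes, 1.81; 12 of the 13 highest members are mitotic, KIF5B is the other, and KIF4B is the only mitotic gene left of the line.

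Among the transport kinesins the level was concentrated in KIF5B. KIF5B, the widely expressed heavy chain of conventional kinesin (chr10:32009015-32056425, minus strand), stood at 5.77 log2 CPM per kilobase, second of all members, and had the highest value of any kinesin before division by length, 8.32 log2 CPM. It held 12% of the summed kinesin level, against 24.8% for all 15 transport kinesins. Its paralogs KIF5C and KIF5A, known as the neuronal heavy chains, were at -0.90 and -2.03 log2 CPM per kilobase. KIF5B thus accounted for 98.6% of the summed level of the kinesin-1 heavy chains.

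The other 14 transport kinesins lay between -3.82 and 3.47 log2 CPM per kilobase. KIFC3, a minus-end motor of cell junctions, was next after KIF5B at 3.47. The kinesin-2 motors, which form heteromers and drive transport in cilia and elsewhere, differed among themselves: KIF3B was at 3.22, KIF3C at 2.58 and their common partner KIF3A at 1.32. KIF1B and KIF1C, carriers of mitochondria and vesicles, were at 2.98 and 2.69, whereas KIF1A, the carrier of synaptic vesicle precursors in axons, was the lowest of the class at -3.82. KIF13A and KIF13B, which move endosomal and membrane cargo, were nearly equal at 2.02 and 2.00 log2 CPM per kilobase. KIFC2 was at 1.77, the early endosome motor KIF16B at 0.74 and KIF17, a motor of cilia and dendrites, at -1.65. Before division by length KIF5C (1.90) and KIF5A (0.50) were above 0 log2 CPM, and KIF1A was at -0.63. A link of these levels to the cell type was not tested.

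The members with other roles were mostly low. KIF21B, which limits microtubule growth, was an exception at 3.15 log2 CPM per kilobase, as was KIF7, a ciliary regulator of Hedgehog signalling, at 2.53. KIF9 (1.13), the centriole protein KIF24 (0.13), KIF19 (-0.86), which sets cilium length, and KIF27 (-1.61) followed. KIF21A, the paralog of KIF21B, had an authors' mean of -3.32 log2 CPM, KIF26A -3.66, KIF6 -2.82 and KIF26B -2.76. KIF25, at -3.76 log2 CPM, lay within 0.01 of the lowest value in the table. For these 5 genes the value reflects little beyond that lower limit, and no ratio is given. In all, 6 of the 11 other members reached 0 log2 CPM.

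The classes were then compared with each other. The median was 3.82 log2 CPM per kilobase over the 14 mitotic kinesins (quartiles 3.58 and 5.05) and 2.00 over the 15 transport kinesins (quartiles -0.08 and 2.84), a difference of 1.82. The median of the 11 other members was -1.61, and that of all protein-coding genes 1.81. The transport median was thus close to that of coding genes, while the mitotic one stood higher, with a median of 72.5% of coding genes lying below its members. The ranges overlapped: KIF5B was above the mitotic median, and KIF4B was below the transport median. Members of a class are not replicates, so no test was made, and without a spread between libraries the order of neighbouring genes cannot be judged.

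An authors' mean of at least 0 log2 CPM, that is 1 CPM, was reached by 14 of 14 mitotic and 14 of 15 transport kinesins, KIF1A being the exception. The background was 69.1% of protein-coding genes and 43.8% of all genes listed. At 5 log2 CPM the classes parted more, with 12 of 14 mitotic (85.7%) and 6 of 15 transport kinesins, against 35.3% of protein-coding genes. Summed per kilobase, the mitotic kinesins held 71.0% and the transport kinesins 24.8% of the kinesin level, a ratio of 2.87, or 5.57 when KIF5B was left out. The 5 highest members per kilobase, KIF2C, KIF5B, KIFC1, KIF22 and KIF20A, made up 52.1% of it. Of these, KIF22 was only 12th among the members before division by length. Transcripts were shorter in the mitotic class, with a median of 4237.5 bases against 6007 in the transport class, and without division by length the medians were 6.42 and 4.61 log2 CPM.

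**Figure D3:**
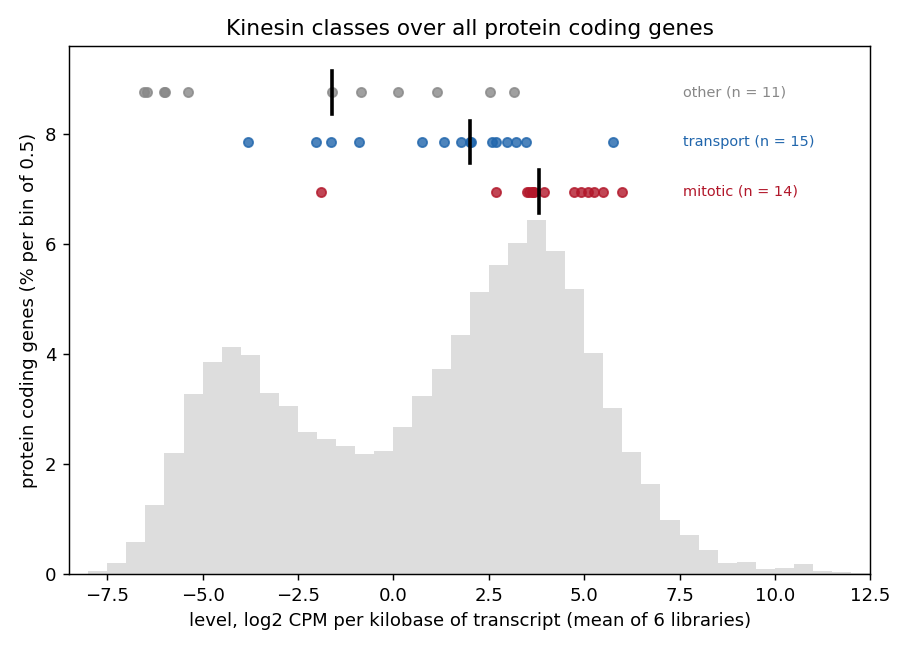
Level of each kinesin gene by class (points, log2 CPM per kilobase of transcript, authors' means over 6 libraries; black bars are class medians) above the distribution of 16630 protein-coding genes (grey, percent of genes per bin of 0.5). The mitotic median of 3.82 lies to the right of the transport median of 2.00, and 5 other members lie at the far left.

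Subunits and partners on a fixed list were compared with their motors. In kinesin-2, the accessory subunit KIFAP3, which joins KIF3A dimers to cargo, was at 38.7 CPM per kilobase, 15.5 times KIF3A and 2.53 times the sum of KIF3B and KIF3C. KIF3B and KIF3C together were 6.15 times KIF3A. In kinesin-1, the 4 light chains, which bind cargo, summed to 15.9 CPM per kilobase against 55.2 for the heavy chains, a ratio of 0.29. Before division by length KIF5B was at 319 CPM, against 18.8 for KLC1 and less for the other light chains. KLC1 was the highest light chain at 7.36 CPM per kilobase, but 64.7% of its transcript is overlapped by exons of another GENCODE 44 gene on the same strand. The authors counted with HTSeq on a refSeq annotation, and whether that overlap is present there was not tested, so its value and the ratio are uncertain. For KLC3 the authors' mean was -3.48 log2 CPM.

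Mitotic partners were high as a group, with a median of 5.28 log2 CPM per kilobase, against 1.81 for protein-coding genes. All 13 were at or above 0 log2 CPM, as were 69.1% of protein-coding genes. In centralspindlin, KIF23 (26.5 CPM per kilobase) was 0.683 times RACGAP1 (38.8), its partner in the complex. KIF11 was 0.164 times TPX2, the spindle assembly factor that recruits it to spindle microtubules, and 2.62 times KIF15. KIF20A (34.1 CPM per kilobase) lay between INCENP (23.7) and CDCA8 (52.9), AURKB (57.8) and BIRC5 (67.2), the subunits of the chromosomal passenger complex. Before division by length KIF20A was above AURKB, at 105.5 against 71.8 CPM. MAPRE1, a microtubule plus-end protein, was the highest partner at 7.84 log2 CPM per kilobase. PRC1, the central spindle crosslinker that recruits KIF4A, was the lowest at -0.27, but 88.4% of its transcript is overlapped by exons of another GENCODE 44 gene on the same strand, so for the same reason this value was not set against KIF4A.

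Further partners were also measured. AURKA, which acts with TPX2, was at 5.28 log2 CPM per kilobase, NUMA1 of the spindle poles at 4.46, and the microtubule stabilizers CLASP1 and CLASP2 at 4.27 and 3.94. KIFBP, a protein that binds several kinesins, was at 2.88. Among the transport adaptors, PLEKHM2 (4.66 log2 CPM per kilobase), which links kinesin to lysosomes, and RHOT1 (4.62), RHOT2 (4.63), TRAK1 (3.79) and TRAK2 (2.29), which link it to mitochondria, were detected. SPAG9 (3.29) and MAPK8IP3 (2.59), scaffolds of kinesin-1, were also present, while MAPK8IP1 and HAP1 stood at -3.38 and -3.67 log2 CPM per kilobase. The dynein chains, of the opposite motor, were at 3.55 (DYNC1H1), 5.15 (DYNC1LI1) and 3.26 (DYNC1LI2). Of the kinesins with other names, the kinetochore motor CENPE was at 3.16, close to KIF21B, and STARD9 at -2.61.

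**Figure D4:**
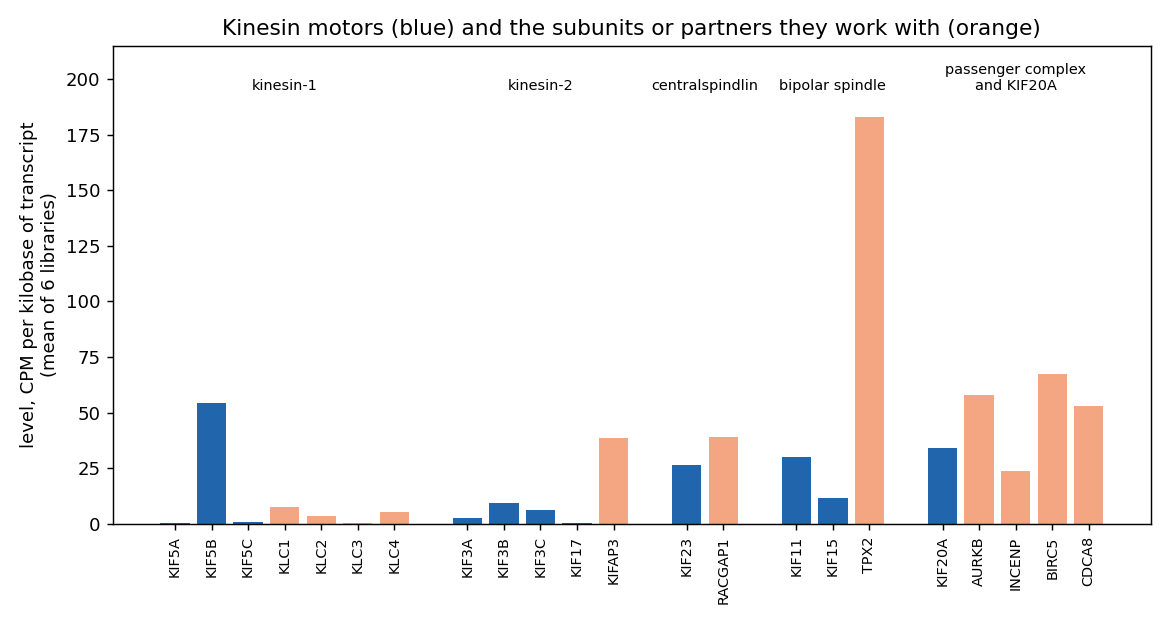
Authors' mean level over 6 libraries, in CPM per kilobase of transcript on a linear axis from 0, of kinesin motors (blue) and of the subunits or partners they work with (orange). KIFAP3 at 38.7 exceeds each kinesin-2 motor, KIF5B exceeds the light chains, and TPX2 is the tallest bar.

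Paralog pairs ranged from nearly equal levels to levels several log2 units apart. KIF4A (chrX:70290104-70420886, plus strand, 31 exons) and KIF4B (chr5:155013755-155018141, plus strand, 1 exon) are identical at 95.9% of 3696 aligned coding bases, yet their levels were 3.96 and -1.89 log2 CPM per kilobase. Of the 50-base stretches of the KIF4B transcript 14% also occur in KIF4A, so some reads cannot be assigned and the low KIF4B value is uncertain. KIF5B and KIF5C are identical at 71.9% of aligned coding bases and differed by 6.67 log2 units, and KIF1A and KIF1B (72.2%) by 6.80. KIF13A and KIF13B (67.3%) differed by 0.02 and KIF1B and KIF1C (73.3%) by 0.29. KIF3B and KIF3C (71.3%) differed by 0.64, KIF18B and KIF18A (60.5%) by 0.87 and KIF20A and KIF20B (70.7%) by 1.46. These identities cover aligned bases only. The aligned part was 46.2% of the longer coding sequence for KIF20A and KIF20B and 60.2% for KIF1B and KIF1C.

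The first 120 coding bases of KIF4A and KIF4B are shown because this pair is the only one compared that is over 80% identical. Capitals mark the 4 positions at which they are unequal.
KIF4A: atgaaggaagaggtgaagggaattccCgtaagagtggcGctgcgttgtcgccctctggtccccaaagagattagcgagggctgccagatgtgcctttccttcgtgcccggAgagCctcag
KIF4B: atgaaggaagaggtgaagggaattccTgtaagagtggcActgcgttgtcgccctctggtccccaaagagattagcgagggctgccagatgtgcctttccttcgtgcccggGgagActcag

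The likeness of the pair reached into the part of the promoter windows nearest the start. When the KIF4B window was shifted by 37 bases, 68 of 71 bases from the CCAAT box of KIF4A to the end of the shared stretch were identical (95.8%), and 163 of all 263 overlapping bases (62.0%), with the CCAAT box and the CHR at the same distance of 24 bases in both. Relative to the annotated starts the CHR lay at -34 in KIF4A and at 4, inside the transcript, in KIF4B. KIF4B therefore holds the same pair of letters as KIF4A. Its listed level was 5.85 log2 units lower, a value that is uncertain because of the shared stretches. Whether the letters act in either gene was not tested.

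Other limits from the annotation touched few members. KIF27 shared 18.9% of its 50-base stretches with transcripts of other genes, and KIF2A 3.88%. Exons on the opposite strand overlapped 27.2% of the KIF2A transcript (DIMT1), 24.2% of KIFC2 (FOXH1), 17.1% of KIF9 (KIF9-AS1) and 11.4% of KIF27. The libraries kept strand by their kit, but the setting used in counting is not given in the sources used here, so reads of these genes and of their opposite-strand neighbours may not be told apart.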

How the data were processed

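Poly(A) RNA of 3 shCtrl and 3 shTMIGD2 HEL libraries was sequenced, grouped by the labels. The paper's methods and the submitters' notes name STAR 2.6.1b, hg38, HTSeq 0.6.1, DESeq2 and edgeR. The authors deposited a table of 31999 genes with a single log2 CPM value per gene, read here as a mean over the 6 libraries. Its prior count, scaling and way of averaging are not given in the sources used here. The 4 remaining value columns of the table (log2 fold change, F, p-value and FDR) hold the authors' own comparison and were not used. The count tests planned need values per library and were not run, and depth per library is unknown, so no interval is given.

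Names were matched to GENCODE 44 (GRCh38), 22987 by symbol and 581 by a RefSeq synonym, and all 40 members by symbol. CPM was divided by MANE Select transcript length, otherwise by the longest protein-coding transcript. Promoter windows came from RefSeq (GRCh38.p14). Motifs were searched on both strands. Coding sequences were aligned globally (Biopython 1.88, Python 3.11.15). The functions were tested on simulated data. Protein sequences were not used here. Every member and every gene of the fixed partner list is named, except 2 partners that are not reported here. Members, classes, partner and marker lists were chosen with earlier results of these data known.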

Additional observations from a re-analysis of the deposited data

How the results depend on the processing

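The mitotic minus transport difference in median level, 1.82 log2 CPM per kilobase, kept its sign under every alternative run and ranged from 1.59 (pseudocount of 1 CPM per kilobase) to 2.53 (means in place of medians). The last was the only one to move it by over 1.5 times as a ratio of CPM per kilobase, with means of 3.88 and 1.34 in the classes. The mitotic share of the summed level ranged from 59.4% (no length) to 77.1% (without KIF2C and KIF5B) and the transport share from 17.3% to 34.2%. Counts at a line of 1 and of -1 log2 CPM were 13 and 14 for mitotic and 12 and 15 for transport kinesins. Transport kinesins with the CHR letters went from 1 to 0 when only letters no more than 60 bases before the start were counted, an alternative chosen after seeing the data, as were asking for a CCAAT box in the same window and leaving out the highest member of each class. No paired analysis was possible because the values are means over all libraries. For the same reason no library could be left out and no other normalization or count test was run.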

Other observations

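Names near the kinesin family that the rule left out were also listed. KIF9-AS1, which lies opposite KIF9, had an authors' mean of 1.40 log2 CPM, against 2.87 for KIF9. The pseudogenes KIF28P and KIF3AP1 were at -2.32 and -3.76 log2 CPM. By family, the summed level per kilobase was shared by kinesin-13 (17.3%), kinesin-6 (16.2%), kinesin-14 (13.1%) and kinesin-1 (12.2%), with kinesin-10 and kinesin-5, of 1 member each, at 8.41% and 6.63%.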
